A study of Piaractus mesopotamicus with 9 samples.

Results

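Enzymes of fatty acid synthesis and of adjoining steps were described in cultured myotubes of pacu (Piaractus mesopotamicus), a South American fish. The group comprised the 10 names aclya, aclyb, acaca, acacb, fasn, scd, scdb, elovl6, acss2 and fads2, matched exactly to the gene names of the annotated contigs. The members were selected on the aclya values, that is, on its difference from CTR in both treatments. Of the 10 names, 9 were found among 19365 gene names, and fasn (fatty acid synthase) is not analysed here. The 9 names covered 36 contigs, of which 20 had a mean raw count of at least 10 over the 9 libraries and were tested. Each of the 9 genes had at least 1 tested contig, and the contig of a name with the highest mean raw count, called its leading contig, stood for the gene.

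The study sequenced messenger RNA of myotubes, the fused muscle cells formed in culture, to ask how amino acids or IGF1 change transcription in starved fish muscle cells. Cells came from fast-twitch muscle and were used on day 8 of culture. The AA group received 12 h of nutrient restriction and then medium with amino acids, the IGF1 group received the same restriction and then recombinant IGF1 in the medium without amino acids, and the CTR group stayed in restriction for 36 h. Each group had 3 libraries, from 3 independent cell cultures by the study's methods, and it is not stated whether libraries of the same number share a culture. The protocol in the labels and the study's methods both give 24 h of treatment for AA and IGF1, whereas the treatment field of the labels gives 12 h. All groups shared the initial restriction without amino acids. The medium of the AA group was DMEM and that of the other groups a salt solution with vitamins and glucose, so the amino acids cannot be told apart from other components of DMEM. The cells were a primary culture and not a clone, and fewer cells of a type and less RNA per cell cannot be told apart in such bulk libraries.

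In animal cells, ATP-citrate lyase cuts citrate exported from mitochondria into cytosolic acetyl-CoA, and acetyl-CoA carboxylase turns acetyl-CoA into malonyl-CoA. Fatty acid synthase condenses these units into palmitate, which ELOVL6 lengthens and stearoyl-CoA desaturase makes monounsaturated. The genes of these enzymes are targets of the SREBP1 transcription factor and, in part, of ChREBP in vertebrates, and the sterol enzymes are targets of SREBP2. Teleost fish carry duplicates of many of these genes, named with a final a or b.

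The libraries held between 1366043 (AA replicate 3) and 53525876 (IGF1 replicate 3) raw counts, and AA replicate 3 had 15.1% of the tested contigs at 0. Values below are normalized counts, the raw counts divided by one size factor per library, and they were not compared between genes because contig lengths are not given. In the marker lists, 13 muscle genes were tested and their summed normalized count was 2413 to 3902 in AA libraries, 1419 to 1602 in IGF1 libraries and 944 to 1235 in CTR libraries. Of these muscle genes, 10 rose in AA to CTR, 3 rose and 1 fell in IGF1 to CTR, and 7 rose in AA to IGF1. Over all 13162 genes tested, 6.56% rose and 6.57% fell in AA to CTR. The shares were 3.11% and 3.31% in IGF1 to CTR, and 4.23% and 4.8% in AA to IGF1. The sum of 11 genes of the adipocyte list was 1369 to 1469 in AA, 1067 to 1453 in IGF1 and 3300 to 4443 in CTR. The defining adipocyte genes adipoq, fabp4 and pparg were not analysed here, so this sum cannot show a change in fat cells. In IGF1 to CTR a few abundant genes carried the lower sum. There 3 of the 9 tested genes of this list fell (lepa, lepb and fabp11a) while 5 had a positive log2 fold-change, with a median of 0.15. In AA to CTR 3 of the 9 fell and 1 rose, and 2 had a positive log2 fold-change, with a median of −0.76. These counts stand beside the shares of all genes just given. The sum of 8 fibroblast genes, mainly collagen chains, was 155141 to 167059 in AA, 232995 to 242202 in IGF1 and 154563 to 166607 in CTR. Of these 8 genes, 1 rose and 2 fell in AA to CTR, and 5 rose in IGF1 to CTR. In AA to IGF1, 1 of them rose and 5 fell. The same shares of all genes stand beside these counts. The sum of 7 endothelial genes was 190 to 385 in AA, 271 to 354 in IGF1 and 269 to 292 in CTR. Of 14 leukocyte and blood markers, 3 were found and summed to at most 6.19 normalized counts in any library. Of 9 glial and neural markers, 4 were found and summed to at most 13.1. None of these blood and neural genes reached the minimum count for testing. The others, among them ptprc and mpz, were not analysed here, so these low sums cannot show that such cells were absent. The part of these markers in the results below was not tested.

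ATP-citrate lyase was annotated under 2 names, with differences of unlike size. For aclya, the leading contig DN3804_c0_g1_i1 held 69.8, 39.9 and 70.3 normalized counts in AA libraries, 14.9, 11.4 and 4.40 in IGF1 libraries, and 1.61, 1.46 and 0.354 in CTR libraries. The 3 groups did not overlap, with AA highest and CTR lowest. In raw counts these were 33, 59 and 10 in AA, 21, 4 and 22 in IGF1, and 2, 2 and 1 in CTR. The log2 fold-change was 5.77 ± 0.74 in AA to CTR, 3.17 ± 0.78 in IGF1 to CTR and 2.60 ± 0.60 in AA to IGF1 (standard error, n = 3 per group). Because the CTR libraries held 5 counts together, the ratio of normalized counts was 53.0 with a 95% counting interval of 22 to 167 in AA to CTR, and 7.56 with 3.02 to 24.4 in IGF1 to CTR. These aclya values chose the group and are given with no test.

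The paralog aclyb, which also encodes ATP-citrate lyase, was far less different between groups. Its leading contig DN413_c1_g3_i2, with 95.9% of the counts on that name, held 338.6, 289.4 and 330.4 normalized counts in AA, 255.8, 162.4 and 208.0 in IGF1, and 203.2, 171.6 and 177.2 in CTR. All AA libraries lay above all IGF1 and CTR libraries, and the IGF1 and CTR libraries overlapped. The log2 fold-change was 0.77 ± 0.19 in AA to CTR and 0.22 ± 0.18 in IGF1 to CTR, and in AA to IGF1 it was 0.56 ± 0.19 (95% interval 0.16 to 0.95) with an edgeR adjusted p of 0.083. Without IGF1 replicate 1 the adjusted p was 0.0452. It was also below 0.05 with DESeq2 (0.048), the library size only (0.0232) and the replicate block (0.0407), and 16 of 20 alternatives gave no call. A second contig named aclyb, DN10066_c0_g1_i1, was picked out after its values were seen. It passed the minimum mean raw count through the AA libraries, where it was high, and is given with no test. It held 38.1, 38.5 and 28.1 normalized counts in AA, 8.50, 0 and 1.20 in IGF1, and 1.61, 1.46 and 1.41 in CTR. The AA libraries lay above all the others, as for aclya, and the fitted log2 fold-change in AA to IGF1 was 3.33 ± 0.76. It is not known whether this contig belongs to aclya or aclyb.

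A share within a library does not depend on how libraries are scaled. Over all contigs of both names, aclya took 19.5%, 14.5% and 23.9% of the ATP-citrate lyase counts in AA libraries, 6.72%, 6.56% and 3.39% in IGF1 libraries, and 1.52%, 0.816% and 0.978% in CTR libraries. The means were 19.3% ± 4.71 in AA, 5.56% ± 1.87 in IGF1 and 1.1% ± 0.366 in CTR (SD, n = 3). The shares use the same aclya counts that chose the members, so they restate that choice on another scale and are no further support for it. The name aclyb held most of the counts in every library. The thinnest AA share, from 67 counts in replicate 3, had a 95% Wilson interval of 15.3% to 35.3%, and that of CTR replicate 1 was 0.591% to 3.83%. These intervals cover counting error only.

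**Figure D1:**
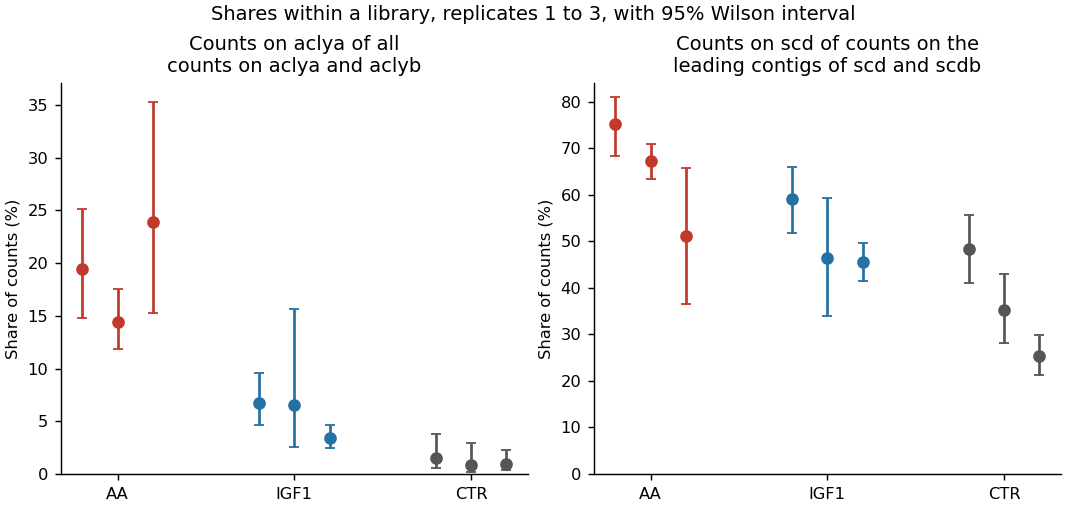
Share of counts within each library (y axis, %) for aclya among all aclya and aclyb counts (left) and for scd among the leading contigs of scd and scdb (right), with replicates 1 to 3 of AA, IGF1 and CTR and 95% Wilson intervals as bars. The aclya share was between 14.5% and 23.9% in AA, at most 6.72% in IGF1 and at most 1.52% in CTR, while the scd shares of AA and IGF1 overlapped.

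Acetyl-CoA synthetase 2, encoded by acss2, makes cytosolic acetyl-CoA from acetate. Its leading contig held 91.0, 62.9 and 133.6 normalized counts in AA, 58.1, 102.6 and 79.3 in IGF1, and 85.1, 49.6 and 72.8 in CTR. The groups overlapped in every comparison, and AA to IGF1 gave a log2 fold-change of 0.15 ± 0.33 (95% interval −0.54 to 0.83, adjusted p = 0.86). The direction was not stable, since the log2 fold-change was −0.04 without AA replicate 3 and also −0.04 without IGF1 replicate 1. To CTR, the log2 fold-change was 0.31 ± 0.32 in AA and 0.16 ± 0.30 in IGF1. Counts on this name were spread over 4 tested contigs, of which the leading one held 32.2%. The direction also differed between contigs. In AA to IGF1 the others had log2 fold-changes of 0.17 ± 0.33, −0.45 ± 0.38 and 0.74 ± 0.46, all with overlapping libraries.

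The acetyl-CoA carboxylases carry out the committed step of fatty acid synthesis, and in mammals the acacb enzyme sits at mitochondria, where its malonyl-CoA restrains fatty acid oxidation. For acaca, the leading contig held 95.2, 100.8 and 112.5 normalized counts in AA, 65.9, 42.7 and 74.9 in IGF1, and 45.8, 43.1 and 42.1 in CTR. All AA libraries exceeded all the others, and IGF1 replicate 2 lay among the CTR libraries. The log2 fold-change of acaca was 1.20 ± 0.29 in AA to CTR and 0.56 ± 0.27 in IGF1 to CTR, and in AA to IGF1 it was 0.64 ± 0.28 (95% interval 0.05 to 1.24, adjusted p = 0.195).

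For acacb, the leading contig held 82.5, 83.2 and 56.2 normalized counts in AA, 39.7, 34.2 and 47.6 in IGF1, and 53.8, 29.2 and 50.6 in CTR. The AA libraries lay above all the others, and the IGF1 and CTR libraries overlapped. The log2 fold-change of acacb was 0.78 ± 0.33 in AA to CTR, −0.09 ± 0.32 in IGF1 to CTR and 0.88 ± 0.34 in AA to IGF1 (95% interval 0.17 to 1.58, adjusted p = 0.125). The split between these 2 names is uncertain. The leading contigs of acaca and acacb are isoforms of the same assembled gene, DN3946_c1_g1. Another acacb contig, DN5348_c0_g3_i1, comes from another assembled gene and held 40.2, 31.1 and 28.1 normalized counts in AA, 22, 5.70 and 16.4 in IGF1, and 36.9, 24.8 and 22.6 in CTR. It had a log2 fold-change of 0.27 ± 0.45 in AA to CTR, −0.76 ± 0.44 in IGF1 to CTR and 1.03 ± 0.47 in AA to IGF1 (adjusted p = 0.217). The share of acaca in the counts of both leading contigs was 58.3% ± 7.24 in AA, 59.7% ± 3.66 in IGF1 and 50.3% ± 8.03 in CTR (SD, n = 3). The shares of AA and IGF1 libraries overlapped. The 2 tested acaca contigs held equal counts in 5 of 9 libraries and differed by at most 4 counts elsewhere, so they are not independent measurements.

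The desaturase scd, whose product places the first double bond into stearoyl-CoA and palmitoyl-CoA, was the member other than aclya with the clearest separation of AA. It held 283.6, 260.4 and 147.6 normalized counts in AA, 73.7, 74.1 and 52.0 in IGF1, and 68.3, 40.2 and 34.7 in CTR. Every AA library was well above every IGF1 and CTR library, including the shallow AA replicate 3, and the IGF1 and CTR libraries overlapped. The means were 230.5 ± 72.7 in AA, 66.6 ± 12.7 in IGF1 and 47.7 ± 18 in CTR (SD, n = 3). The gene scd rose in AA to IGF1 by a log2 fold-change of 1.89 ± 0.30 (95% interval 1.26 to 2.52, adjusted p = 0.000403). The call held under all 20 alternatives, with log2 fold-changes of 1.57 to 2.08 and adjusted p of 5.95e-09 to 0.0131. To CTR, its log2 fold-change was 2.35 ± 0.30 in AA and 0.46 ± 0.30 in IGF1. The leading contig carried 98.9% of the counts on this name.

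The second desaturase name, scdb, held 93.1, 126.5 and 140.6 normalized counts in AA, 51.0, 85.5 and 62.1 in IGF1, and 73.1, 73.7 and 101.8 in CTR. All AA libraries lay above the IGF1 libraries, but AA and CTR overlapped, as did IGF1 and CTR. The log2 fold-change was 0.48 ± 0.27 in AA to CTR and −0.40 ± 0.27 in IGF1 to CTR, and in AA to IGF1 it was 0.88 ± 0.28 (95% interval 0.29 to 1.47, adjusted p = 0.0618). Without IGF1 replicate 2 the adjusted p was 0.044. Within a library, scd in AA took 75.3%, 67.3% and 51.2% of the counts on both desaturase contigs, against 59.1%, 46.4% and 45.5% in IGF1, and 48.3%, 35.3% and 25.4% in CTR. For these leading contigs, all AA shares lay above all CTR shares, and 2 of the 3 AA shares lay above every IGF1 share. The leading scdb contig held 48.1% of the counts on that name, and a second isoform contig, DN648_c3_g1_i1, held nearly the same counts. In AA replicate 3, scd held 21 raw counts and the scdb contigs 20, 20, 4 and 2. In CTR replicate 1 these were 85, and 91, 83, 3 and 0. Over all contigs, that AA share was therefore not above that CTR share. With 3 libraries against 3, the two-sided exact permutation test of AA to IGF1 cannot go below p = 0.1, and it gave p = 0.2.

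The elongase elovl6 turns palmitate into stearate. Its leading contig held 55.0, 52.8 and 70.3 normalized counts in AA, 39.7, 68.4 and 40.0 in IGF1, and 51.4, 43.1 and 39.3 in CTR. The AA libraries lay just above the CTR libraries and overlapped the IGF1 libraries. The log2 fold-change of elovl6 was 0.35 ± 0.33 in AA to CTR, 0.06 ± 0.32 in IGF1 to CTR and 0.28 ± 0.34 in AA to IGF1 (95% interval −0.43 to 1.0, adjusted p = 0.711). A second isoform contig of elovl6 overlapped in all 3 comparisons.

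The desaturase fads2, which acts on polyunsaturated fatty acids, was thinly covered. Its leading contig held 23.3, 29.8 and 14.1 normalized counts in AA, 17.0, 0 and 5.2 in IGF1, and 10.4, 1.46 and 7.43 in CTR. The AA libraries lay above the CTR libraries and overlapped the IGF1 libraries. In IGF1 replicate 2, the 0 counts allow up to 8.55 normalized counts (3 counts), and the value of AA replicate 3 rests on 2 counts. The log2 fold-change of fads2 was 1.90 ± 0.75 in AA to CTR and 0.39 ± 0.75 in IGF1 to CTR, and in AA to IGF1 it was 1.51 ± 0.75 (95% interval −0.07 to 3.08, adjusted p = 0.261). With edgeR's newer quasi-likelihood method the AA to IGF1 difference passed the test (log2 fold-change 1.79, adjusted p = 0.0369).

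**Figure D2:**
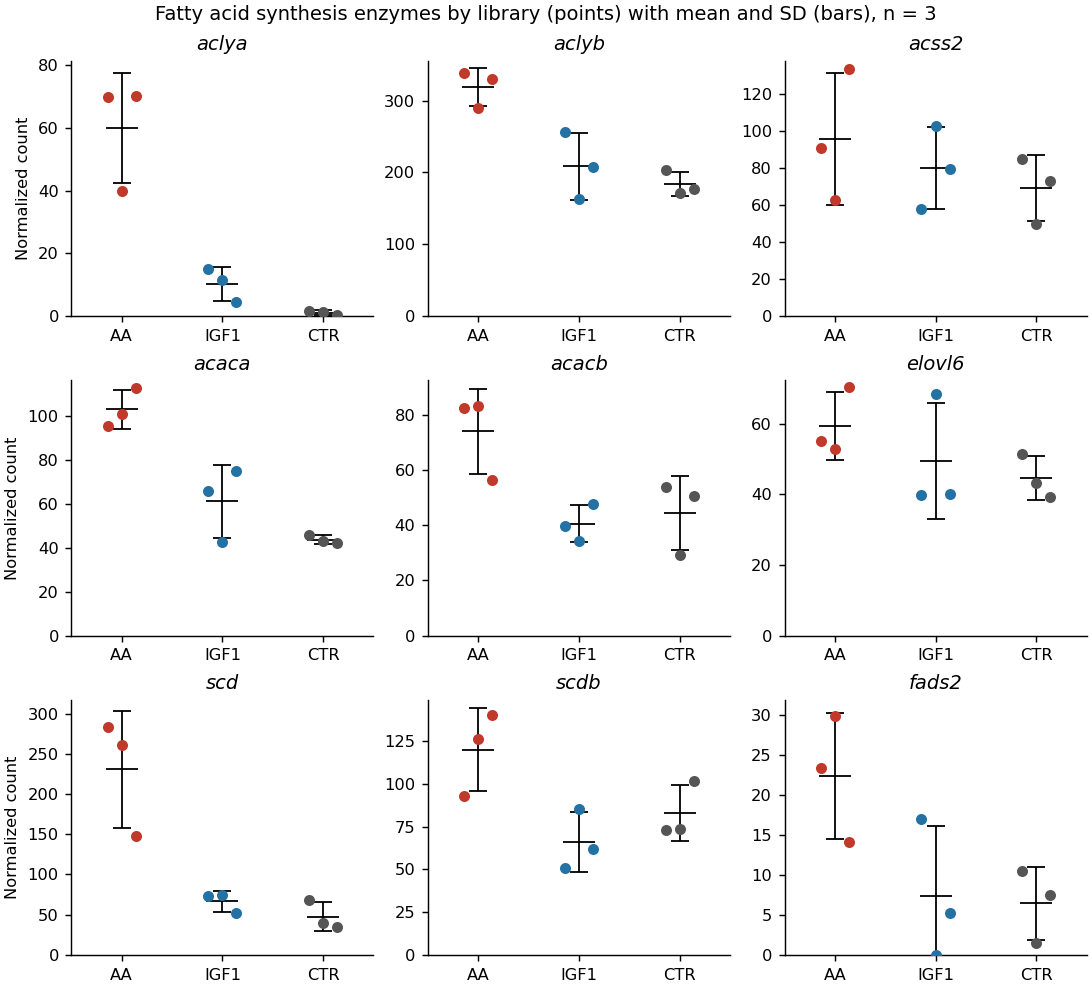
Normalized counts (y axis, from 0, one scale per panel) of the leading contig of the 9 enzymes in the 3 libraries of AA, IGF1 and CTR, with the mean and SD as black bars. For aclya, aclyb, acaca, acacb and scd the 3 AA points sit above all IGF1 and CTR points, while acss2 overlaps in every comparison.

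Counted over the group, AA libraries lay above CTR libraries without overlap in 7 of 9 members, against 16.4% of the 13162 genes tested (16.2% lay below). In IGF1 to CTR the only member without overlap was aclya, against 16.3% of genes higher and 13.9% lower without overlap. Since the group was chosen in these contrasts, nothing is read from these counts. The median log2 fold-change of the 8 members other than aclya was 0.78 in AA to CTR, 0.19 for IGF1 over CTR and 0.76 in AA to IGF1, beside medians of 0.03, 0.05 and −0.02 over all genes in the same order. AA to CTR and AA to IGF1 share the AA libraries. In AA to IGF1, 1 of the 8 members other than aclya rose by edgeR's test (scd), and 5 lay without overlap above IGF1. In that comparison 4.23% of all genes rose and 4.8% fell, and 13% lay above and 14.6% below without overlap. All 8 fitted differences were positive, but those of elovl6 and acss2 changed sign under some alternatives. The leading contigs of acaca and acacb, counted separately here, are isoforms of the same assembled gene. How many of all genes had a positive difference was not counted.

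**Figure D3:**
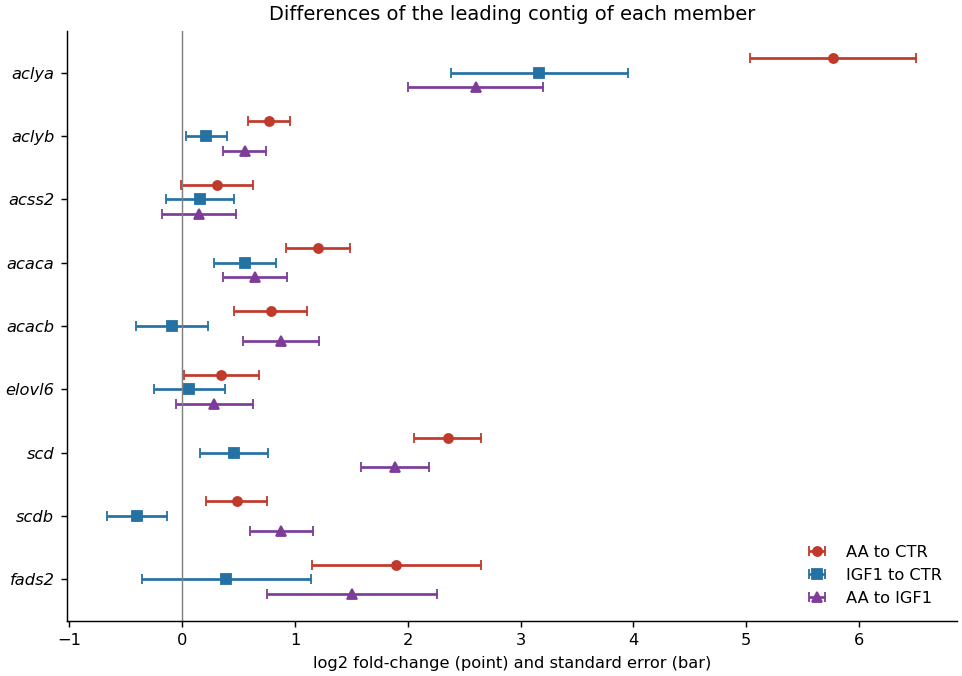
log2 fold-change (x axis) with its standard error for the leading contig of each enzyme for AA to CTR (circles), IGF1 to CTR (squares) and AA to IGF1 (triangles). The values of aclya, 5.77 in AA to CTR and 3.17 in IGF1 to CTR, lie apart from the other members, and scd had the next highest difference in AA to CTR at 2.35.

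The members also differed in how they varied over the 9 libraries. On log2 of the normalized count plus 1, the pair acaca and aclyb had the highest Pearson r of all member pairs, 0.93, and the pair fads2 and elovl6 the lowest, −0.11. Among 6892 genes with an informative symbol and a mean raw count of at least 50, the 5 patterns most like that of aclya were those of hp1bp3 (r = 0.98), p3h2 (0.97), sost (0.97), pld7 (0.97) and tnfaip2b (0.96). Those most like scd were arf6b (0.97), fmoda (0.97), nid1a (0.97), midline1 (0.96) and neo1b (0.96). These values describe 9 libraries that share groups and depths.

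Around these enzymes, 6 lists of genes were tested. Of all 13162 genes, 6.56% rose and 6.57% fell in AA to CTR, 3.11% rose and 3.31% fell in IGF1 to CTR, and 4.23% rose and 4.8% fell in AA to IGF1. Of the 32 tested genes in the list of acetyl-CoA, citrate and NADPH supply, 3 rose and 3 fell in AA to CTR. These counts are near those shares. In this list 3 genes rose in IGF1 to CTR, and 1 rose and 6 fell in AA to IGF1. The median log2 fold-changes were −0.14, 0.31 and −0.40. The supply list also holds kinases that inhibit pyruvate dehydrogenase, among them pdk3b, which fell in AA to CTR. The gene acat2, which rose there, is also counted in the sterol list. The NADPH-producing enzyme pgd (6-phosphogluconate dehydrogenase) held 908, 1215 and 1280 normalized counts in AA, 1061, 1123 and 1061 in IGF1, and 641, 590 and 651 in CTR. It rose in both treatments, by 0.83 ± 0.14 in AA to CTR (adjusted p = 0.000522) and by 0.78 ± 0.14 in IGF1 to CTR (adjusted p = 0.00102). The transaldolase gene taldo1 fell in AA to CTR (−0.49 ± 0.12, adjusted p = 0.0129, and 0.0517 without CTR replicate 2 or 0.0768 without CTR replicate 3). The taldo1 call was also lost with the library size only (0.0911).

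The 6 genes of the supply list that fell in AA to IGF1 were cs, pdha1b, mdh1ab, idh2, taldo1 and acss1. They encode enzymes of pyruvate oxidation, the citric acid cycle, malate exchange, the pentose phosphate pathway and acetate activation. Citrate synthase, cs, held 213.8, 222.5 and 246.1 normalized counts in AA, 395.4, 381.9 and 377.7 in IGF1, and 329.3, 346.8 and 339.8 in CTR. It fell in AA to IGF1 by a log2 fold-change of −0.79 ± 0.16 (adjusted p = 0.00274, and 0.157 with all libraries thinned to the shallowest) and in AA to CTR by −0.61 ± 0.15 (adjusted p = 0.0139). The mitochondrial acetyl-CoA synthetase acss1 held 40.2, 51.4 and 28.1 in AA, 185.0, 179.5 and 137.9 in IGF1, and 98.8, 41.6 and 59.1 in CTR. It fell in AA to IGF1 (−1.91 ± 0.33, adjusted p = 0.000978) and rose in IGF1 to CTR (1.33 ± 0.29, adjusted p = 0.00781), the call in IGF1 to CTR being lost without CTR replicate 2 (0.0564), CTR replicate 3 (0.066) or IGF1 replicate 1 (0.0564). The acss1 call in IGF1 to CTR was also lost with counts summed over all contigs of a name (0.0739) and with limma (0.0509). The isocitrate dehydrogenase idh2 fell in AA to IGF1 (−0.67 ± 0.12, adjusted p = 0.00163). It had −0.27 ± 0.12 in AA to CTR (adjusted p = 0.173) and 0.40 ± 0.12 in IGF1 to CTR (adjusted p = 0.0607). The mitochondrial malic enzyme me3 rose in AA to IGF1 (1.01 ± 0.21, adjusted p = 0.00372). It had 0.38 ± 0.20 in AA to CTR (adjusted p = 0.243) and −0.62 ± 0.20 in IGF1 to CTR (adjusted p = 0.0717). For me3 the IGF1 libraries lay below all CTR libraries, and the AA and CTR libraries overlapped. The pyruvate dehydrogenase subunit pdhb rose in IGF1 to CTR (0.70 ± 0.17, adjusted p = 0.0136, and 0.0576 to 0.0777 without CTR replicate 2, CTR replicate 3 or IGF1 replicate 1). The pdhb call was also lost with counts summed per name (0.0768) and after thinning (0.315). One inhibitory kinase of pyruvate dehydrogenase, pdk3b, fell in AA to CTR (−1.22 ± 0.26, adjusted p = 0.00434). The kinases pdk1 (−0.36), pdk2a (−0.63), pdk4 (−0.37) and pdk3a (0.85) were not called there, with adjusted p of 0.167 to 0.678. The citrate carrier slc25a1b, which exports the substrate of ATP-citrate lyase, had a log2 fold-change of 0.03 ± 0.23 in AA to CTR and −0.25 ± 0.22 in IGF1 to CTR, with adjusted p of 0.955 and 0.652. Cytosolic malic enzyme, me1, had 0.18 ± 0.39 and −0.32 ± 0.37, with adjusted p of 0.829 and 0.742. The gene slc25a1a is not analysed here.

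Of 27 tested regulators of lipogenesis, 2 rose and 1 fell in AA to CTR, 1 rose in IGF1 to CTR, and 2 rose and 1 fell in AA to IGF1, counts near the shares of all genes given above. The genes srebf1 and mlxipl, which encode SREBP1 and ChREBP, are not analysed here. The gene of SREBP2, srebf2, held 148.2, 140.0 and 196.9 normalized counts in AA, 163.0, 114.0 and 124.3 in IGF1, and 175.9, 98.6 and 114.9 in CTR, with overlap in every comparison and adjusted p of 0.602 to 0.932. A gene that SREBP induces and that retains it in the endoplasmic reticulum, insig1, rose in AA to CTR (1.46 ± 0.33, adjusted p = 0.00631, and 0.0568 with limma or 0.0854 after thinning), with 194.7, 142.0 and 77.3 in AA against 66.7, 47.5 and 45.6 in CTR, and had 0.57 ± 0.32 in IGF1 to CTR (adjusted p = 0.394). The gene mid1ip1b encodes a protein that in mammals activates acetyl-CoA carboxylase by promoting its polymerization. It rose in AA to CTR (1.14 ± 0.21, adjusted p = 0.00161) and in IGF1 to CTR (0.91 ± 0.20, adjusted p = 0.00926), the IGF1 call being lost without CTR replicate 1 (0.0537), IGF1 replicate 1 (0.0689) or IGF1 replicate 3 (0.0655). This IGF1 call was also lost with counts summed per name (0.0553) and after thinning (0.131). The paralog mid1ip1a, picked out after its values were seen, rose in AA to IGF1 (1.75 ± 0.40, adjusted p = 0.00852) although the libraries overlapped. The mid1ip1a call was lost without AA replicate 2 (0.0594) or IGF1 replicate 3 (0.0701), and with limma (0.094). The pseudokinase trib3, which in mammals promotes breakdown of acetyl-CoA carboxylase, fell in AA to CTR (−0.84 ± 0.13, adjusted p = 0.000337). In AA to IGF1 the trib3 call (−0.47 ± 0.14, adjusted p = 0.0342) was lost without AA replicate 1, 2 or 3, CTR replicate 3, or IGF1 replicate 2 or 3 (0.0611 to 0.146). This trib3 call was also lost with the library size only (0.226) and with only the 2 groups compared (0.0797). The SREBP-cleaving protease mbtps1 held 637, 601 and 766 normalized counts in AA, 469, 433 and 510 in IGF1, and 623, 625 and 603 in CTR. It rose in AA to IGF1 (0.45 ± 0.14, adjusted p = 0.0494) and had 0.07 ± 0.14 in AA to CTR (adjusted p = 0.793). The AA to IGF1 call was lost without any one of the 9 libraries (0.0573 to 0.147). It was also lost with counts summed per name (0.055), edgeR's own filter (0.0576), no filter (0.213) and the newer quasi-likelihood method (0.0547). The same held with only the 2 groups compared (0.0903) and after thinning (0.46).

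Downstream of synthesis, gpam was the gene with the most marked difference. It encodes the mitochondrial glycerol-3-phosphate acyltransferase, the first enzyme of glycerolipid synthesis. It held 609.6, 816.3 and 738.2 normalized counts in AA, 134.6, 142.5 and 220.6 in IGF1, and 831.3, 1011 and 1028 in CTR. The IGF1 libraries lay far below all the others. The gene fell in IGF1 to CTR by −2.48 ± 0.19 (adjusted p = 3.24e-07) and rose in AA to IGF1 by 2.06 ± 0.19 (adjusted p = 1.81e-06), and both calls held under all 20 alternatives. Of the 16 tested genes of fatty acid activation and glycerolipid synthesis, only these calls of gpam and a fall of acsl4a, a long-chain acyl-CoA synthetase, in AA to CTR (−0.81 ± 0.18, adjusted p = 0.00601, and 0.0505 without CTR replicate 3) passed the test in the 3 comparisons. Among 11 other genes of elongation and desaturation, which include the dehydratases, reductases and cytochrome b5 partners of these steps, the elongase elovl1b fell in AA to CTR (−0.50 ± 0.15, adjusted p = 0.0352), and no other call was made in any comparison. The elovl1b call was lost without AA replicate 2 or 3, CTR replicate 1, 2 or 3, or IGF1 replicate 3 (0.054 to 0.1). It was also lost with the library size only (0.125), limma (0.0517) and counts summed per name (0.0526). The same held with only the 2 groups compared (0.0609) and after thinning (0.0653). Of 8 genes of mitochondrial fatty acid synthesis and lipoylation, hsd17b8 rose in IGF1 to CTR (1.15 ± 0.29, adjusted p = 0.0232), a call that was lost without any one of the CTR or IGF1 libraries (0.058 to 0.0915). The hsd17b8 call was also lost with limma (0.0603) and after thinning (0.651).

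Malonyl-CoA, the product of acetyl-CoA carboxylase, inhibits the carnitine palmitoyltransferases that admit fatty acids to mitochondria. The muscle-type gene cpt1b held 0, 1.35 and 0 normalized counts in AA, 30.5, 22.8 and 20.6 in IGF1, and 25.7, 35.8 and 25.1 in CTR. The AA libraries held 2 counts in all, against 152 in CTR, and the ratio of normalized counts was 0.0342 with a counting interval of 0.00411 to 0.126 in AA to CTR. In AA to IGF1 the ratio was 0.0420 with an interval of 0.00504 to 0.154. It fell in both comparisons (adjusted p = 0.00034 in AA to CTR and 0.000797 in AA to IGF1), and both calls were lost with all libraries thinned to the shallowest (0.075 and 0.473). The 0 counts allow up to 6.35 normalized counts in AA replicate 1 and up to 21.1 in AA replicate 3 (3 counts each). The gene cpt1aa overlapped in every comparison. The gene cpt1ab had log2 fold-changes of 0.82 ± 0.28 in AA to CTR and 0.91 ± 0.27 in IGF1 to CTR, with adjusted p of 0.067 and 0.0509. It passed the test in AA to CTR without AA replicate 3 (0.0398), and in IGF1 to CTR without AA replicate 1 (0.042) or AA replicate 3 (0.0278). In AA to CTR it also passed with DESeq2 (0.0386), the library size only (0.0286) and the newer quasi-likelihood method (0.04). In IGF1 to CTR it also passed with DESeq2 (0.0169), the newer method (0.0176) and only the 2 groups compared (0.0273). The other alternatives, 16 and 15 of 20, gave no call. The name cpt1b had 2 contigs and cpt1ab 4, and only leading contigs are described. Those of cpt1b and cpt1ab, DN2484_c0_g3_i2 and DN2484_c0_g2_i5, come from the same assembly cluster, DN2484_c0. The split between these names was not checked.

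Sterol synthesis and uptake had the most calls of the 6 lists in AA to CTR. Of 24 tested genes, 13 rose in AA to CTR, 1 rose in IGF1 to CTR and 7 rose in AA to IGF1, beside the shares of all genes given above. The median log2 fold-changes were 1.17, 0.34 and 0.79. Lanosterol synthase, lss, held 158.7, 109.6 and 140.6 normalized counts in AA, 48.2, 19.9 and 19.0 in IGF1, and 42.6, 19.7 and 19.1 in CTR. It rose in AA to CTR (2.32 ± 0.41, adjusted p = 0.000824) and in AA to IGF1 (2.16 ± 0.41, adjusted p = 0.00219). The rate-limiting reductase hmgcra rose in AA to CTR (1.76 ± 0.30, adjusted p = 0.000587) and in IGF1 to CTR (1.1 ± 0.29, adjusted p = 0.0276). The IGF1 call of hmgcra was lost without CTR replicate 2 (0.146), CTR replicate 3 (0.122), IGF1 replicate 1 (0.174) or IGF1 replicate 2 (0.078). It was also lost with limma (0.102), with counts summed per name (0.082) and after thinning (0.4). Farnesyl diphosphate synthase, fdps, rose in AA to CTR (1.68 ± 0.27, adjusted p = 0.000446) and in AA to IGF1 (1.35 ± 0.28, adjusted p = 0.00382). The thiolase acat2, which begins sterol synthesis from acetyl-CoA, rose in AA to CTR (1.76 ± 0.34, adjusted p = 0.00216). It is counted in the supply list as well.

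In AA to IGF1, the squalene epoxidase sqlea rose by 1.12 ± 0.26 (adjusted p = 0.00866, and 0.114 after thinning) and the isomerase idi1 by 1.28 ± 0.33 (adjusted p = 0.0186). The idi1 call was lost without AA replicate 1 (0.109), AA replicate 2 (0.0582), IGF1 replicate 2 (0.0524) or IGF1 replicate 3 (0.104). It was also lost with counts summed per name (0.0771) and with limma (0.0586). The AA to CTR count of this list was 7 without CTR replicate 3 and 14 without AA replicate 3. The AA to IGF1 count was 3 without AA replicate 1 or IGF1 replicate 3, 4 without AA replicate 2 or IGF1 replicate 2, and 9 without AA replicate 3. The IGF1 to CTR count was 0 without CTR replicate 2, CTR replicate 3 or IGF1 replicate 1, 2 without AA replicate 1 and 3 without AA replicate 3. Over all 20 alternatives the sterol count was 7 to 15 in AA to CTR and 3 to 10 in AA to IGF1. Both were lower with limma, and the AA to IGF1 count also after thinning. The IGF1 to CTR count was 0 to 4, and it changed with most of the other methods too. This list was known to move with AA when it was chosen, and its count is not independent evidence of that direction.

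**Figure D4:**
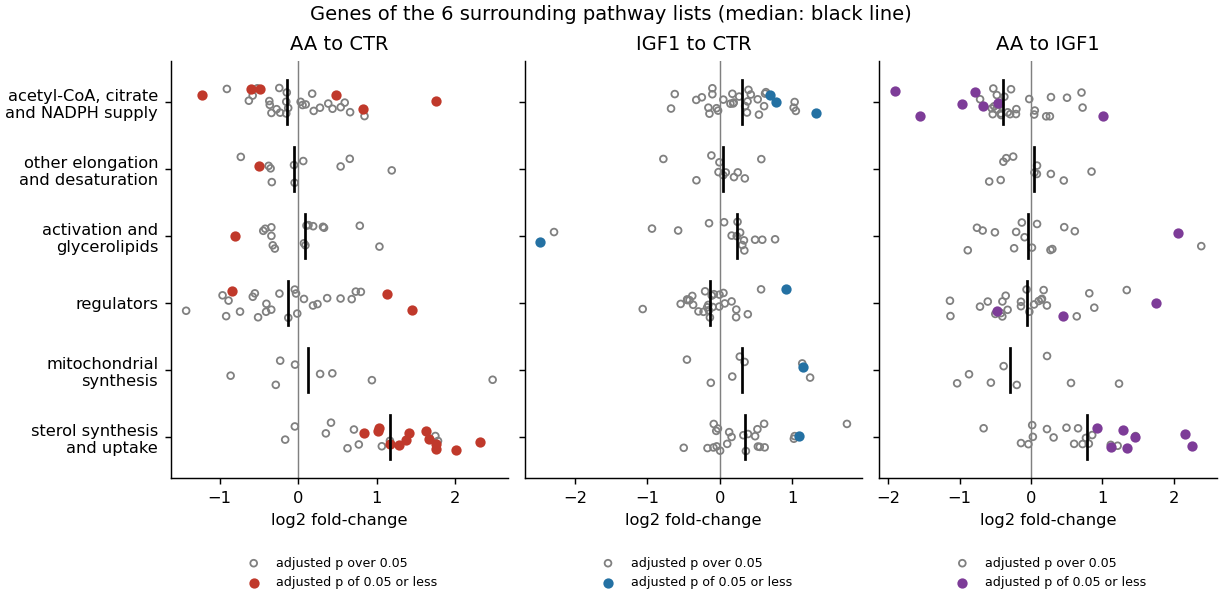
log2 fold-change (x axis) of every tested gene of the 6 surrounding lists (rows) in the comparisons AA to CTR (left), IGF1 to CTR (middle) and AA to IGF1 (right), with filled points for genes that passed the test and a black line at the median of each list. The sterol list had 13 filled points above 0 in AA to CTR and 1 in IGF1 to CTR, and the supply list 6 below 0 in AA to IGF1.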

How the data were processed

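Messenger RNA libraries of pacu myotubes (AA, IGF1 and CTR, 3 each) were used. The authors trimmed the reads with Trimmomatic after FastQC 0.11.8, assembled them with Trinity, annotated contigs by BLASTx and mapped reads with Bowtie2, with no genome used. The deposited counts are whole numbers per contig without normalization. The signal values deposited by the authors are the same counts divided by DESeq2 size factors, for the 35575 of 69932 contigs whose raw counts average at least 10. The tool that counted reads is not given in the sources used here.

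The test was that of edgeR 4.0.16 (R 4.3.3) on raw counts of all 9 libraries (TMM, quasi-likelihood F test with the earlier deviance method, group as the only term), with Benjamini-Hochberg adjustment over the 35575 contigs and a threshold of 0.05. Since the labels do not tie libraries to cultures, p-values measure only the spread between libraries. Members were tested only in AA to IGF1, aclya excepted, since the choice used the differences to CTR. The members and lists were chosen with earlier results of these data known. Named genes are every member, up to 4 genes per list and comparison with the smallest adjusted p and no overlap of libraries, 12 regulators and enzymes set by name (one of them is not reported here), and the 5 genes most like aclya. The genes most like scd took the place of those most like fasn, a choice made after seeing the data, and mid1ip1a was named after its values were seen. Alternatives were DESeq2 1.42.0, limma 3.58.1, other normalizations, filters and models, counts summed per name, thinning, and each library left out. Residuals of libraries with the same number correlated between −0.027 and 0.127 over 9 pairs, and no pairing was applied. With 3 libraries per group of unlike depth, these values cannot exclude a shared culture. The fit was tested on simulated data. Counts vary from 1366043 to 53525876 per library, which sets the precision of low genes. Intervals of shares and of ratios of normalized counts cover counting error only. The standard error of a fitted log2 fold-change was its absolute value divided by the square root of its F statistic. Intervals of the fitted fold-changes were built from that standard error.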

Additional observations from a re-analysis of the deposited data

Results flagged for a closer look

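Outside the tested contigs, DN93520_c0_g1_i1, a further contig named aclya with a mean raw count below 10, had signal above the control level in AA. It held 21.2, 16.2 and 42.2 normalized counts in AA (mean 26.5), 3.54, 0 and 2.20 in IGF1, and 1.61, 0 and 1.41 in CTR, from 10, 24 and 6 raw counts in AA. The ratio of AA to CTR was 17.3 with a counting interval of 7.30 to 50.02. This contig was picked out for its signal in AA and carries the name that chose the group. Its values are given with no test and are no further support for the rise of aclya. A contig named scd, DN60548_c0_g1_i1, averaged 2.51 normalized counts in IGF1 against 0 in every CTR library, from 2 raw counts in each IGF1 library. The IGF1 values were 1.42, 5.70 and 0.40, highest in replicate 2, the shallowest IGF1 library. AA replicate 2 also held 2 raw counts. No difference is read from so few counts.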

How the results depend on the processing

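The 8 members other than aclya kept their direction and their side of the threshold in AA to IGF1 in 148 of 160 values from 20 alternatives. Exceptions in direction were elovl6 at −0.13 after thinning, and acss2, which ranged from −0.040 to 0.43 with one library left out and was below 0 without AA replicate 3 or IGF1 replicate 1. The members called were 3 with DESeq2, 3 with the library size only, 3 with the newer quasi-likelihood method and 2 with the replicate block, against 1, and 1 to 2 with one library left out (2 without IGF1 replicate 1 or 2). Values of the named pathway genes kept their side of the threshold in 623 of 720 cases, lost a call in 88 and gained one in 9, and none turned its direction. Residuals of libraries with the same number correlated between −0.027 and 0.127, which cannot exclude a shared culture with 3 libraries per group of unlike depth. With the block 1877 genes were called in AA to CTR, against 1729. The block gave 1001 against 845 in IGF1 to CTR, and 1411 against 1189 in AA to IGF1. Genes called in AA to CTR were 869 after thinning and 921 with a fold-change minimum, and 955 to 1776 with one library left out, lowest without CTR replicate 3 and 1100 without CTR replicate 2. Genes called in IGF1 to CTR (845) were 539 with counts summed, 511 with limma, 1534 with the newer method, 400 after thinning and 385 with the minimum, and 428 to 1174 with one library left out, with 546, 428, 474 and 502 without CTR replicate 2, CTR replicate 3, IGF1 replicate 1 and IGF1 replicate 3. Genes called in AA to IGF1 (1189) were 717 after thinning and 626 with the minimum, and 713 to 1235 with one library left out, lowest without IGF1 replicate 3. Pathway genes called in AA to CTR (23) were 15 with limma and 15 with the minimum, and 12 to 25 with one library left out (12 without CTR replicate 3, 15 without CTR replicate 2). In IGF1 to CTR (7) they were 17 with DESeq2, 3 with counts summed, 4 with limma, 21 with the newer method, 11 with no filter, 16 with only the 2 groups, 12 with the block, 3 after thinning and 4 with the minimum, and 2 to 17 with one library left out (3 without CTR replicate 2 or 3, 2 without IGF1 replicate 1, 17 without AA replicate 3). In AA to IGF1 (18) they were 11 with the minimum, and 10 to 19 with one library left out (10 without AA replicate 1 or IGF1 replicate 3, 11 without IGF1 replicate 2). Thinning leaves fewer counts and a left-out library fewer samples, and otherwise the cause was not tested. The fitted aclya difference was 3.9 to 6.11 in AA to CTR and 2.02 to 3.67 in IGF1 to CTR over the alternatives, lowest after thinning. The 5 counts of aclya in CTR and the depth of AA replicate 3 limit these values.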
